A study of Mus musculus with 8 samples.

Results

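Red blood cells made up 240 of the 990 cells in a single-cell library of the mouse median eminence (ME), or 24.2% of them (exact binomial 95% interval 21.6 to 27.0%). A cell was counted as a red cell when the 4 adult globin genes Hba-a1, Hba-a2, Hbb-bs and Hbb-bt together held at least 50% of its transcripts, counted as unique molecular identifiers (UMIs). The cells were thus chosen by their globin UMIs, and their globin values are given as a description.

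The study profiled the ME, a neuroendocrine structure at the base of the hypothalamus, in adult mice. The single-cell library was 1 10x Genomics 3' library made from the papain-dissociated ME of 10 pooled wild-type females aged 2 months. Their strain is labelled C57BL/6, and the study's methods name it as C57BL/6N. Because the animals were pooled and there was 1 library, no single-cell value below carries a replicate error. For the same reason no test between groups of cells was possible and no barcode could be shared with another library. The series also held 7 bulk ME libraries from mice labelled C57BL/6 and 2 months old, 3 from wild-type controls and 4 from mice labelled Rax::BrafV600E mutant. In the mutant mice, by the study's methods, a tamoxifen-inducible Cre driven from Rax in tanycytes turns on an activated Braf allele. By the same methods the tissue was taken 2 months after induction of adult mice, which the labelled age of 2 months does not allow for. Each bulk library came from 1 mouse. As a check of the tissue label, 9 of 10 tanycyte markers had counts in all 7 bulk libraries, and Rax itself stood at 28.4 to 163 counts per 1000000 (CPM).

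A circulating mammalian red cell has lost its nucleus and makes no new RNA. Its youngest stage, the reticulocyte, still carries messenger RNA from the marrow, above all for the alpha and beta chains of haemoglobin, and loses it over its first days in the blood. In a tissue that was not perfused, red cells enter the suspension with the blood of the vessels. The RNA of any cell broken during dissociation also floats free in that suspension, and some of it is sealed into each droplet, where it is counted together with the RNA of the cell inside.

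The 4 globin genes that chose the cells lie in 2 clusters, with the alpha chains Hba-a1 and Hba-a2 on chromosome 11 and the beta chains Hbb-bs and Hbb-bt on chromosome 7. Alas2 on the X chromosome encodes the red-cell form of the first enzyme of heme synthesis, and it carried the most non-globin UMIs in these cells. The 120 bases before the annotated start of these 5 genes are shown because they are the genes whose RNA defines the cells. They come from RefSeq on GRCm38.p6 and read 5' to 3' on the strand of each gene, at chr11:32283552-32283671 (+) for Hba-a1, chr11:32296372-32296491 (+) for Hba-a2, chr7:103827929-103828048 (-) for Hbb-bs, chr7:103813924-103814043 (-) for Hbb-bt and chrX:150547297-150547416 (+) for Alas2. Capitals mark 4 motifs on either strand. The TATA box was searched as TATAA and the CCAAT box by the letters of its name. The CACCC box was also searched by its letters, and the GATA motif as GATAA.
Hba-a1: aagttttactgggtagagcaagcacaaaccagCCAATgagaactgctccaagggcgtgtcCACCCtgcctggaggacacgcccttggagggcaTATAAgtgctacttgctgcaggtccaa
Hba-a2: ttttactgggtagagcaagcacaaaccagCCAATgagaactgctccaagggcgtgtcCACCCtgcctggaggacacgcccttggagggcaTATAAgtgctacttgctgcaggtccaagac
Hbb-bs: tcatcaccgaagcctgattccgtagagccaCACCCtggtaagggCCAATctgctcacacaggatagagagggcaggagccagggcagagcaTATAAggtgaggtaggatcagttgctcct
Hbb-bt: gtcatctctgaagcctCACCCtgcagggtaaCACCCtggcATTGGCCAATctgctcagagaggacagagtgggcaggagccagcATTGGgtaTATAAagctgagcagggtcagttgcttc
Alas2: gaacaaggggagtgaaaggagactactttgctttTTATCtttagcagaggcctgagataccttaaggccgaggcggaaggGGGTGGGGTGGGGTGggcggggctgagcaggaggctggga

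The TATAA letters began 27, 30, 29 and 28 bases before the start of Hba-a1, Hba-a2, Hbb-bs and Hbb-bt. All 4 globin stretches also held CCAAT and CACCC, and in Hbb-bt an ATTGG, the reverse complement, adjoined the CCAAT. Over the 32851 promoter stretches of the same length in the RefSeq table, 11.8% held TATAA, 21.3% CCAAT, 31.7% CACCC and 10.5% GATAA on either strand, and 226 (0.688%) held the first 3 together. The Alas2 stretch had no TATAA and no CCAAT, but 3 adjoining copies of GGGTG, the reverse complement of CACCC, and 1 TTATC, that of GATAA. The 2 alpha stretches were the same in 117 of 117 aligned bases, shifted by 3 bases, and the 2 beta stretches in 88 of 119 (73.9%). A match of letters is a description and not a bound site.

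The red cells stood clearly apart from the rest of the library. Their globin share of UMIs ran from 71.8% to 96.0% with a median of 93.9%, whereas the other 750 cells had a median of 0.362%. The cell just inside the threshold held 71.8% globin and the next 88.0%, and the cells just outside it held 27.0%, 5.05% and 1.86%. Requiring at least 25 or 75% globin would have kept 241 or 239 cells. A share of at least 90% was met by 232 cells and one of 95% by 32.

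**Figure D1:**
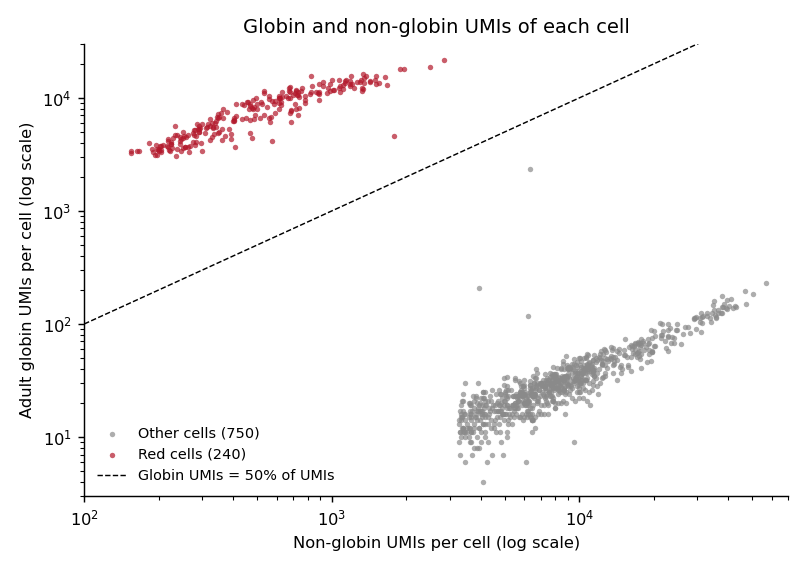
Adult globin UMIs (vertical) against non-globin UMIs (horizontal) of each of the 990 cells, both on log scales, with the 50% line of the rule. The 240 red cells form a separate cloud above the line, with 154 to 2829 non-globin UMIs, and the other cells lie below it.

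Red and other cells were sequenced to nearly the same median depth. The red cells had 3294 to 24268 UMIs (median 7815.5), and the other cells 3284 to 57119 (median 7831.5). Non-globin UMIs, however, numbered 154 to 2829 per red cell (median 478.5) and came from 122 to 1215 genes (median 323), against medians of 7796 UMIs and 2774.5 genes in the other cells. Summed over the red cells, 1949079 of 2095326 UMIs were globin (93.0%), and the remaining 146247 UMIs (6.98%) are the transcripts described below. The red cells held 98.5% of the globin UMIs of the whole matrix.

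When all cells were clustered without the 4 globin genes, 239 of the 240 red cells fell into clusters of red cells. The cells chosen by the rule also had few non-globin UMIs, so this grouping is not independent of the rule. One cluster of 108 red cells was richer in RNA (median 12169.5 UMIs), and one of 131 was poorer (median 5170 UMIs) and also held 2 other cells. The 1 remaining red cell, the cell of lowest globin share, grouped with non-red cells. It had 6348 UMIs, of which 1791 were non-globin, and 5 UMIs of Ghrh, the growth hormone-releasing hormone, which had 0 UMIs in the other 239 red cells. It held 7 UMIs of Alas2, and it was not called a doublet. The doublet caller marked 3 of the 990 cells, 1 of them a red cell. Without the cell of lowest share, Hba-a1 and Hbb-bs held 29.1 and 41.4% of globin UMIs, as with it.

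The alpha and beta chains of haemoglobin were counted in near-equal amounts in red cells. Hba-a1 held 29.1% of their globin UMIs, Hba-a2 21.0%, Hbb-bs 41.4% and Hbb-bt, the less abundant of the 2 beta genes, 8.44%. The 2 alpha genes together thus held 50.1% (95% interval 50.1 to 50.2%). These intervals and all others here cover counting error only. Per red cell, Hba-a1 had 786 to 6084 UMIs (median 2230) and Hba-a2 528 to 4253 (median 1538.5). Hbb-bs had 1311 to 7788 UMIs (median 3130) and Hbb-bt 24 to 3314 (median 516.5). No red cell lacked any of the 4.

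The shares of the 4 genes varied from cell to cell by more than counting gives. As shares of globin UMIs, Hbb-bs ran from 33.5 to 61.9% (median 41.5%, SD over cells 4.43 percentage points against 0.615 from counting alone) and Hbb-bt from 0.744 to 15.5% (median 7.48%, SD 3.60 against 0.347). The alpha share per cell ran from 36.3 to 63.8% (median 50.3%, SD 3.94 against 0.624). Hba-a2 made up 36.9 to 46.9% of alpha UMIs (median 41.8%, SD 1.84 against 0.868). Hbb-bt made up from 1.34 to 29.9% of beta UMIs (median 15.4%, SD 6.92 against 0.670). Among the shares of globin UMIs Hbb-bs had the largest SD, and Hbb-bt had the largest relative to counting.

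Near-identical copies limit how far the reads can be split between genes. Of all 98-base stretches of the annotated Hba-a1 transcripts, 63.7% also occurred in Hba-a2, and 79.9% of those of Hba-a2 occurred in Hba-a1. For Hbb-bs and Hbb-bt, 49.9 and 55.0% of the stretches were shared, and 64.7 and 21.2% in the last 300 bases, where this kind of library is read. For Hba-a1 and Hba-a2 the last 300 bases shared 57.4 and 53.7%. The split within each pair is therefore uncertain, and the effect of shared reads on the alpha to beta ratio was not tested. None of the stretches of Alas2, Ube2l6 or Slc4a1 occurred in another gene.

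The share of Hbb-bt was higher in cells with more globin RNA. The 240 red cells were divided into quartiles of 60 cells by their globin UMIs, from 3094 to 4563 in the first quartile to 11262 to 21439 in the last. Hbb-bt made up 7.68, 13, 16.8 and 21.2% of beta UMIs from the first quartile to the last. Hbb-bs held 44.9% of globin UMIs in the first quartile and 40.2% in the last, and Hba-a1 30.2 and 28.3%. Since the quartiles were drawn from globin UMIs, of which Hbb-bt is a part, this is a description of 1 library, with no test. In the richer and poorer clusters, drawn without globin genes, Hbb-bt made up 20.5 and 10.6% of beta UMIs.

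**Figure D2:**
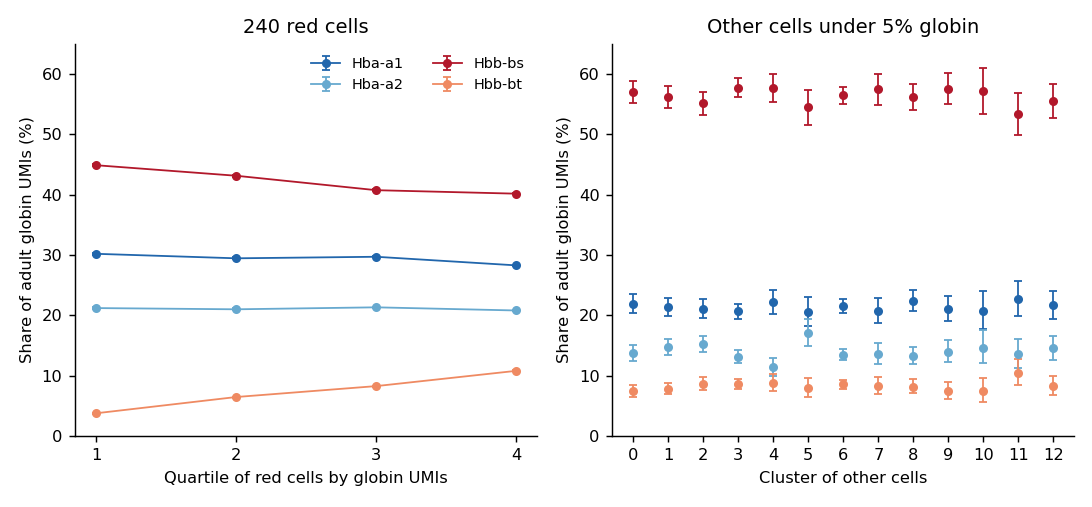
Shares of the 4 globin genes in the summed adult globin UMIs (%), with 95% intervals of counting error, in the quartiles of red cells by globin UMIs (left) and in the 13 clusters of other cells (right). Hbb-bt rises from 3.74 to 10.8% of globin UMIs over the quartiles, and Hbb-bs lies between 53.4 and 57.7% in the clusters of other cells against 41.4% over all red cells.

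Globin UMIs in the other cells had another make-up than those of the red cells. The 748 other cells under 5% globin held 27875 globin UMIs, at a median globin share per cluster of 0.306 to 0.392% in clusters whose median depth ran from 5119 to 31492 UMIs. Only 35.2% of these globin UMIs were alpha (95% interval 34.7 to 35.8%), against 50.1% in red cells, and 56.5% were Hbb-bs (55.9 to 57.1%), against 41.4%. All 13 clusters of other cells lay on the same side, with alpha shares of 33.5 to 37.6%. None of the 240 red cells had an alpha share as low as that of the other cells, and 1 had an Hbb-bs share as high. The globin of the other cells was therefore not the same mixture as that counted in red cells, and the cause was not tested.

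To tell red-cell transcripts from RNA of other cells, each non-globin gene with at least 30 UMIs over the red cells (616 genes) was set against the cluster of other cells in which it was highest. A gene was placed on the red-cell side when its UMIs per red cell were at least 3 times those per cell of that cluster and the 95% Poisson intervals did not overlap. This held for 10 of the 616 genes (1.62%), and 8 of the 10 were in the lists of red-cell genes. Together they held 8553 UMIs, or 5.85% of the non-globin UMIs of red cells. Deep clusters make this a strict measure. By UMIs per 1000000 UMIs of a cluster (CPM), 16 genes passed (2.6%), including all 10, and by UMIs per 1000000 non-globin UMIs 92 passed (14.9%). Counted over the richer cluster of red cells alone 16 genes passed, 9 of the 10 among them, and over the poorer cluster alone 2, both among the 10. With a floor of 3 UMIs and its own interval in every cluster, which in the smallest (22 cells) allows 0.136 UMIs per cell, 5 of the 10 passed.

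Alas2 was the clearest of the 10. It had 1 to 65 UMIs per red cell (median 18) and was found in 100% of red cells, against 14.4% of other cells. Its mean was 18.6 UMIs per red cell (95% interval 18 to 19.1), 42.4 times that of the highest other cluster (0.438). In 7 red cells it had a single UMI. After each cell was thinned to 3000 UMIs, Alas2 was counted in 98.3% of red cells and 5.33% of other cells.

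Ube2l6, a conjugating enzyme for the ubiquitin-like protein ISG15, was also found in most red cells. It had 0 to 27 UMIs per red cell (median 6) and was present in 93.8% of red cells and 23.7% of others. Its mean was 8.73 times that of the highest other cluster. Thinned to 3000 UMIs, the shares of red and other cells were 79.6 and 10.1%.

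The 21 genes of the red-cell membrane and skeleton had 2.12 UMIs per red cell and 4.14 per other cell in sum, and 3 of them were on the red-cell side. Slc4a1, the anion exchanger band 3, had 45 UMIs in red cells, in 12.5% of them, and 1 in the other 750 cells, a ratio per cell of 141 (95% interval 23.98 to 5676). Tspo2, a translocator protein of erythroid cells, had 35 UMIs in red cells and none in the others, which was at least 36.5-fold higher per cell against the floor of 3 UMIs over all other cells. Trim10, a ubiquitin ligase of erythroid maturation, had 39 and none (at least 40.6-fold higher). Hbq1a, a theta-like globin, had 55 UMIs in red cells and 6 in others (28.6 times per cell, 12.4 to 81.4). Outside the lists, Apol11b, an apolipoprotein L gene, had 61 UMIs and 1 (191 times, 32.95 to 7651). These 5 genes were the ones that did not pass with a floor in every cluster, so no bound is given over the highest single cluster. Rec114, known from meiotic recombination and also outside the lists, had 168 UMIs at 4.8 times the highest other cluster, and passed under both.

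The lists of red-cell genes, without the 4 adult globins, named 92 genes in 7 groups. Of these, 90 were in the table, 72 had at least 1 UMI in red cells, 18 were at 0 and 33 had at least 30 UMIs. Of the 33, 8 were on the red-cell side (24.2%, against 1.62% of all genes with as many UMIs), and 12 by CPM. The lists were drawn up with earlier results of these data known, so their counts are a description.

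Among the 12 genes of heme synthesis, Alas2 held 4456 of 5549 UMIs and Fech, which inserts iron in the last step, another 939. Fech had 448 CPM in red cells against 101 in the highest other cluster, and 3.91 UMIs per cell at 2.49 times the highest other cluster, short of the criterion. Enzymes between these steps had few UMIs, with 4 UMIs for Alad, 1 for Uros, 16 for Urod, 4 for Cpox and 4 for Ppox over all 240 cells. The first and last steps of the pathway were thus the ones counted. Among the 8 iron-handling genes none was on the red-cell side. The ferritin light chain Ftl1, with 3361 UMIs, stood at 1604 CPM in red cells and 9866 in the highest other cluster, and 35.0% of its 98-base stretches (50.3% in the last 300 bases) also occur in pseudogenes. Tfrc, the transferrin receptor that marks cells still taking up iron, had 1 UMI in red cells and was found in 11.1% of other cells.

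The 12 enzymes and antioxidant genes had no member on the red-cell side per cell. Bpgm, which makes the haemoglobin effector 2,3-bisphosphoglycerate, was the highest of them, at 0 to 68 UMIs per red cell (median 5) and 2220 in all. Its mean of 9.25 UMIs was 1.81 times that of the highest other cluster, the one highest in oligodendrocyte markers. In CPM it stood at 1060 against 328, or 3.23 times. Car1 and Pklr were at 0. Among the 20 genes of reticulocyte maturation in the table, 3 passed, Ube2l6 and Trim10 among them, and Ulk1 and Trim58 were at 0. Mkrn1, a ubiquitin ligase, narrowly missed at 2.94 times the highest other cluster and stood at 797 against 153 CPM. Of 21 membrane and skeleton genes 3 passed, and Xk, Ermap, Rhd and Rhag were at 0.

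Transcription factors of red-cell development were nearly missing. Of 11 listed, Gata1, Klf1, Gfi1b, Zfpm1, Nfe2 and the erythropoietin receptor Epor were at 0 in all 240 cells. Only Lmo2 reached 30 UMIs, and it was higher in the cluster highest in macrophage and microglia markers. The embryonic globins Hbb-bh1, Hbb-bh2, Hbb-y and Hba-x were also at 0. Genes of the cell cycle had 7 UMIs in all. A count of 0 over 240 cells allows up to 3 UMIs, or 0.0125 per cell.

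**Figure D3:**
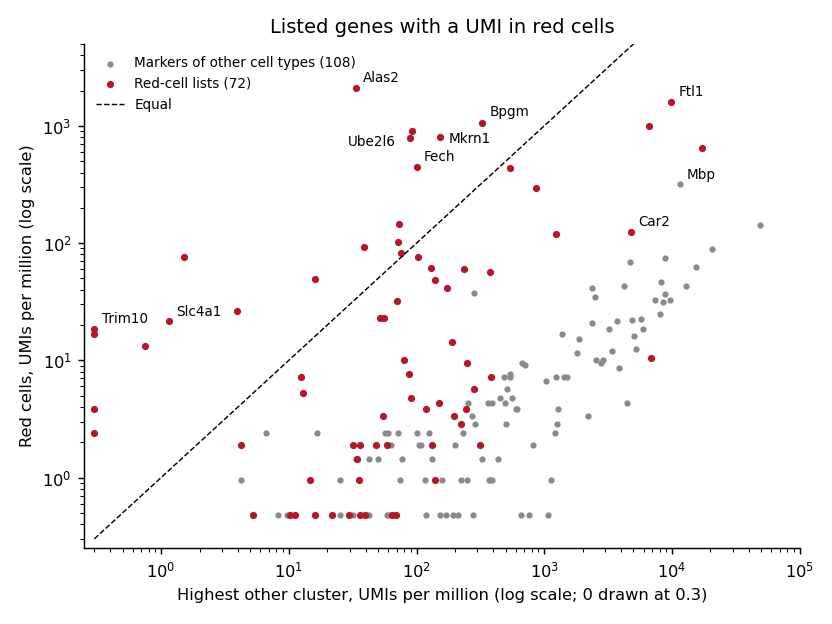
CPM in red cells (vertical) against the highest other cluster (horizontal), both on log scales, for 72 red-cell list genes and 108 markers of other cell types. Of the red-cell genes 19 lie above the line of equal values, and none of the markers does. For a marker the highest other cluster can be that of its own cell type, so its place below the line was largely set in advance.

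Transcripts of other ME cell types were found in the red-cell droplets at a low level that differed between lists. The 13 lists of tissue cell types, with 111 markers, of which 96 had a UMI, summed to 3323 UMIs, or 13.8 per red cell against 322 per other cell. That was 2.27% of the non-globin UMIs of red cells. Against the mean of all other cells, the CPM of the 13 lists stood at 0.0275 to 0.119 times (median 0.0489). Against the clusters that are not the home of each list, they stood at 0.225 to 0.678 times the median cluster (median of lists 0.471). For 9 of the 13 lists the red cells were below the lowest such cluster, and for the other 4 they were within the range. No list stood above the range of those clusters.

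Myelin, neuropeptide and pars tuberalis transcripts were the most abundant of these. Oligodendrocyte markers led with 1349 UMIs, 669 of them Mbp, the myelin basic protein, and at least 1 UMI in 94.6% of red cells. Mbp itself was found in 77.5% of red cells and 89.9% of other cells, and stood at 319 CPM in red cells against 277 in the lowest and 394 in the median other cluster. Neuropeptides followed with 474 UMIs, 157 of them Npy, the neuropeptide Y of arcuate neurons. Pars tuberalis markers had 413 UMIs (Chga, 185), macrophage and microglia markers 385 (C1qb, 68), markers of vascular and leptomeningeal cells 253 (Dcn, 131) and tanycyte markers 178 (Scn7a, 44). Astrocyte markers had 111 UMIs (Aldoc, 72), markers of oligodendrocyte precursors 54 (Olig1, 20) and neuron markers 44 (Stmn2, 15). NK and T cell markers had 22 (Ccl5, 9) and ependymal markers 14 (Rarres2, 9). The 4 pituitary hormone genes, which mark cells outside the ME and are not among the 13 lists, had 8 UMIs (Gh, 5), at 0.405 times their CPM in other cells.

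Markers of other cells that travel with blood or line its vessels had few UMIs in the red-cell droplets, and few in other cells as well. Endothelial markers had 18 UMIs, 5 of them Plvap, with Pecam1, Cdh5 and Esam at 0. Mural markers had 8 (Rgs5, 4) with Acta2, Tagln and Notch3 at 0. Platelet markers had 12 UMIs, 9 of them Pf4, with Ppbp, Gp9, Gp1bb and Tubb1 at 0. Monocyte markers had 4 UMIs (Ly6c2, 2) and mast cell markers 6 (Mcpt4, 3) with Cpa3 at 0. Of the 4 B cell and 8 neutrophil markers none had a UMI. Relative to the CPM of all other cells, mural (0.119 times) and endothelial (0.110 times) markers were the highest of the 13 tissue lists, and platelet, mast cell and monocyte markers stood at 0.0787, 0.0503 and 0.0324 times. The mast cell markers stood at 2.07 times the median of the clusters that are not their home, on 6 UMIs.

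RNA kept in the nucleus was scarcer still. Malat1, a nuclear long non-coding RNA, had 5.45 UMIs per red cell and 477 per other cell, or 0.0135 times the level of other cells in CPM, below the lowest of the 13 tissue lists. Mitochondrial messenger RNA had 35.3 UMIs per red cell against 465, and made up 5.79% of the non-globin UMIs of red cells and 4.52% of those of other cells. Transcripts of ribosomal proteins had 61.6 UMIs against 1278, 10.1 and 12.4% of non-globin UMIs. Immediate early genes, which respond to handling of the tissue, had 5.52 against 167. As shares of non-globin RNA the mitochondrial and ribosomal transcripts of red cells were near those of the tissue.

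By these measures the 146247 non-globin UMIs of red cells fell into 4 portions. The 10 genes of the red-cell side held 5.85%. Another 459 genes, with 33.7% of the UMIs, stood at or below 0.119 times their level in other cells, the highest value of the 13 tissue lists. That highest value came from the mural list, with 8 UMIs. With the highest value of the lists of at least 100 UMIs, 0.064 times, 346 genes with 21.3% of the UMIs lay at or below it. Above 0.119 times, but short of the criterion for the red-cell side, were 147 genes with 26.8% of the UMIs (260 genes with 39.2% by the lower value). Among the 147, Bpgm, Fech and Mkrn1 stood at 11.97, 10.7 and 9.92 times their CPM in other cells, far above the 13 tissue lists and above every other cluster in CPM, while Ftl1 stood at 0.546 times. The 147 genes stood above the median other cluster in CPM in 47 cases and above the highest in 17. Genes under 30 UMIs held the remaining 33.7%.

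The 10 non-globin genes with most UMIs mixed these portions. They included Alas2 (4456), Ftl1 (3361), Bpgm (2220), Ubb (2084), mt-Co3 (1834), mt-Atp6 (1777), Mkrn1 (1670), Ube2l6 (1639) and Oaz1 (1393). Alas2 and Ube2l6 were on the red-cell side, and the other 7 named here were not. Ubb, a polyubiquitin gene, and Oaz1, which inhibits polyamine synthesis, share 43.8 and 14.7% of their 98-base stretches with other genes or pseudogenes (81.8 and 45.96% in the last 300 bases), and their counts are uncertain.

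Red cells with more globin RNA also had more RNA of membrane, enzyme and maturation genes for each UMI. Of the 33 list genes with at least 30 UMIs, 22 were higher in CPM in the last quartile of globin UMIs than in the first, with intervals apart, 1 was lower (Ftl1, 1860 to 1550) and 10 had overlapping intervals. Of all 616 genes with as many UMIs 90 were higher (14.6%) and 15 lower (2.44%), against 66.7% of the list genes higher. The non-globin share of UMIs was 6.72, 5.99, 6.19 and 8% over the 4 quartiles. Alas2 was nearly flat, at 1880 CPM in the first quartile and 2051 in the last (1.09 times, intervals overlapping). Ube2l6 went from 525 to 801, Bpgm from 326 to 1459 and Mkrn1 from 244 to 1161. Gpx1, a glutathione peroxidase, went from 36.6 to 546 and Car2, a carbonic anhydrase, from 16.3 to 242, both 14.9 times.

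The list sums also differed. Enzymes and antioxidants went from 525 to 2742 CPM from the first quartile to the last (5.22 times), membrane and skeleton genes 3.28 times and reticulocyte maturation genes 2.50 times, whereas heme synthesis and iron handling stood at 1.19 and 1.08 times. The sums of these last lists are mostly Alas2 and Ftl1, and other members were higher in the last quartile with intervals apart, with Fech at 265 and 514 CPM, the ferritin heavy chain Fth1 at 435 and 821 and Glrx5, of iron-sulfur cluster assembly, at 12.2 and 114. In CPM, markers of other tissue cell types did not follow, at 1644, 1457, 1504 and 1680 over the 4 quartiles (1.02 times). Mitochondrial messenger RNA stood at 0.802 times in CPM, transcripts of ribosomal proteins at 0.925 times and Malat1 at 1.21 times. Per droplet, however, the tissue markers went from 6.73 to 24.65 UMIs from the first quartile to the last (3.66 times). The adult globins went up 3.53 times per droplet. The quartiles thus also order the droplets by their UMIs of tissue markers. All of this describes cells of 1 library ordered by their own globin UMIs, and no test was made.

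**Figure D4:**
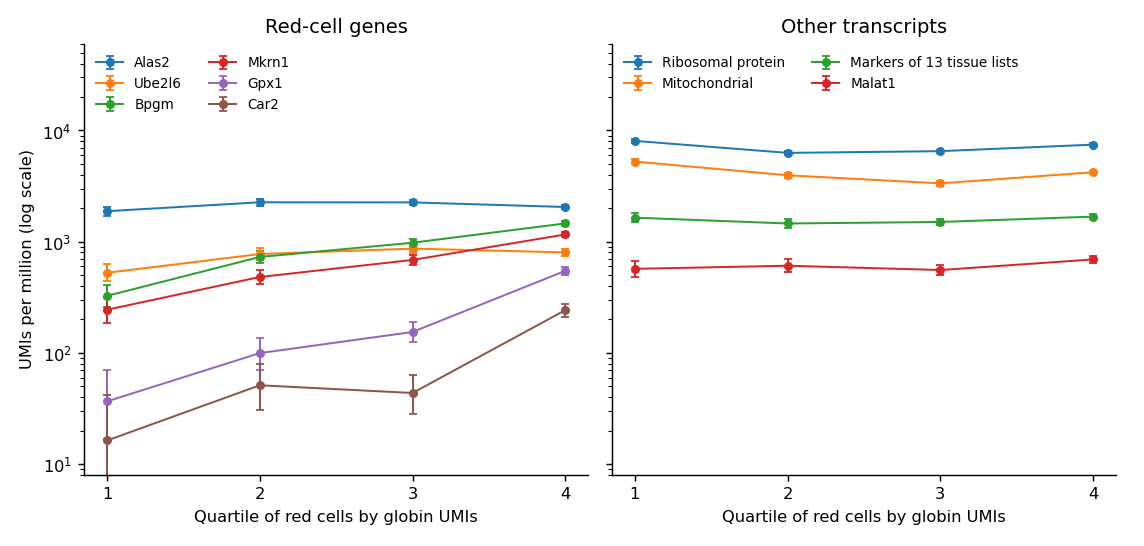
CPM (log scale) in the 4 quartiles of red cells by globin UMIs, with 95% intervals of counting error, for red-cell genes (left) and for other transcripts (right). Bpgm, Mkrn1 and Gpx1 climb over the quartiles, Car2 stands at 16.3, 51.1, 43.5 and 242, Alas2 is nearly level, and the summed tissue markers lie between 1457 and 1680.

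Whether red-cell RNA differed between the bulk ME of control and mutant mice was asked of the same genes. No red-cell gene passed the edgeR quasi-likelihood test, while DESeq2 called Ppox and edgeR without a filter on low counts called Ppox and Car2. In the single-cell library Car2 stood at 125 CPM in red cells and 4800 in the cluster highest in oligodendrocyte markers. Its bulk counts are thus not particular to red cells. The bulk libraries held 8348930, 12209728 and 13816596 counts in controls and 10754670, 9329661, 5678941 and 4928456 in mutants. The globin share of counts was 0.590, 0.622 and 0.813% in controls and 1.21, 0.441, 0.173 and 0.157% in mutants. Mutant replicate 1 was the highest of the 7, and mutant replicates 3 and 4, the shallowest libraries, were the lowest, so the groups overlapped. In whole tissue, fewer red cells and less RNA per red cell cannot be told apart. The number of genes with a count also differed, at 34942, 21986 and 17874 in controls and 25910, 35978, 40852 and 39508 in mutants, and its part in the results was not tested.

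Hba-a1 stood at 2191, 3214 and 5590 normalized CPM in controls and 5874, 1891, 653 and 673 in mutants. That gave 3665 ± 1744 (SD, n = 3) against 2273 ± 2470 (SD, n = 4), with a log2 fold change of -0.69 (SE 0.71, edgeR quasi-likelihood test, adjusted p = 0.860). The groups overlapped for Hba-a1 and for the other 3 globins. Hbb-bs stood at 2297, 2136 and 2101 CPM in controls and 4781, 1631, 676 and 418 in mutants, a log2 fold change of -0.21 (SE 0.68, edgeR adjusted p = 0.961). For Hba-a2 and Hbb-bt the log2 fold changes were -0.74 (SE 0.68) and -0.35 (SE 0.70), with edgeR adjusted p of 0.843 and 0.938. Without mutant replicate 1, the log2 fold changes of Hba-a1, Hba-a2, Hbb-bs and Hbb-bt were -1.74, -1.79, -1.24 and -1.24, with edgeR adjusted p of 0.442, 0.407, 0.536 and 0.602. Without control replicate 3, those of the same genes in the same order were -0.21, -0.26, -0.20 and -0.66. The control libraries lay close together for Hbb-bs, while mutant replicate 1 was above and the other mutants below all of them.

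Alas2 stood at 78.9, 108.5 and 27.8 CPM in controls and 176, 67.8, 15.5 and 12 in mutants (log2 fold change -0.07, SE 0.82, edgeR adjusted p = 0.987). Within the globin counts, the alpha share was 51.3, 63.2 and 76.7% in controls and 58.9, 56.6, 53.1 and 66.0% in mutants, and Hbb-bt made up 15.2, 14.1 and 6.12% of beta counts in controls and 10.6, 12.3, 12.2 and 10.9% in mutants. The groups overlapped in both measures. Log2 fold changes of Bpgm and Slc4a1 were -0.80 (SE 0.45) and 0.06 (SE 1.48), with edgeR adjusted p of 0.696 and 0.994.

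**Figure D5:**
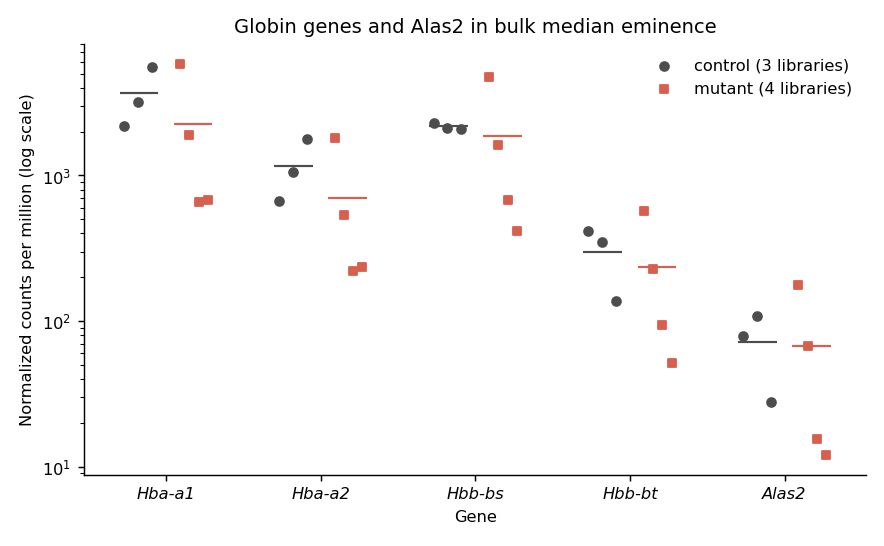
Normalized CPM (log scale) of the 4 globin genes and Alas2 in each of the 3 control and 4 mutant bulk libraries, with group means. The groups overlap for every gene drawn, and mutant replicate 1 is the highest mutant for each globin gene.

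Over all genes, edgeR called none of 20466 at an adjusted p below 0.05 (0%), 1661 had an unadjusted p below 0.05, and DESeq2 called 297. Of the 96 listed red-cell genes, adult globins included, 81 were tested and none was called by edgeR (lowest adjusted p 0.407, for Ppox), while 8 had an unadjusted p below 0.05 (9.88%, against 8.12% of all genes) and DESeq2 called 1. Their median log2 fold change was -0.21 against 0.13 for all genes tested, and 49 of 81 were negative (60.5%, against 43.3% of all genes). Alad, Gypc, Hbq1b, Isg20, Ppox and Tmod1 were lower in every mutant than in every control library, which is 7.41% of the 81 against 3.18% of all genes. Trim10 alone was higher in every mutant, 1.23% against 5.83%, with 0 counts in all 3 controls and 0.179 to 3.20 CPM in mutants. Ppox, an enzyme of heme synthesis, stood at 85.5, 79.6 and 86.7 CPM in controls and 52.8, 20.8, 14.7 and 23.2 in mutants. In the single-cell library Ppox and Alad had 4 UMIs each over all 240 red cells, Tmod1 8, Gypc 1, Hbq1b 28 and Isg20 306. Most of these genes were thus hardly counted in red cells. Of the 10 genes on the red-cell side, 8 were tested in bulk. Of these, 0 were lower in every mutant and 1 was higher in every mutant (Trim10), and 5 had a negative log2 fold change.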

How the data were processed

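The single-cell file is a matrix of whole-number UMI counts per gene and cell that the authors deposited, made with Cell Ranger on mouse reference GRCm38 (mm10). The study's methods give another Cell Ranger version than the submitters' processing notes, which name 2.0.1. It holds 990 cells and 9846289 UMIs, equal to the number of qualified cells the study states, and no further filter on cells was applied. The authors deposited the bulk data as raw read counts per gene, with 4928456 to 13816596 per library. The aligner and counter used for the bulk libraries are not given in the sources used here, and the notes also list DESeq2. Every column of the bulk table was used.

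Red cells were chosen by the globin rule, and the 750 other cells were clustered with Seurat 5.3.0 (R 4.3.3, log-normalized counts, variable genes by mean 0.02 to 8 and dispersion above 0.5, 20 components, resolution 0.8) into 13 clusters, identified below by the marker lists that are highest in them. Scrublet in scanpy 1.11.5 called 3 cells doublets (0.303%), and they were kept. Marker lists, red-cell lists and the members were chosen with earlier results of these data known. Intervals are exact 95% Poisson for UMIs and Clopper-Pearson for shares (scipy 1.17.1). They treat UMIs as independent molecules. CPM of cells are UMIs per 1000000 of all their UMIs summed. The floor for a count of 0 is 3 UMIs over the cells of a group.

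Bulk counts were tested with edgeR 4.0.16 (filterByExpr, TMM, glmQLFit and glmQLFTest, mutant against control, Benjamini-Hochberg adjustment over 20466 genes, threshold 0.05). DESeq2 1.42.0 was an alternative. Each library came from 1 mouse. The edgeR fit and the criterion for the red-cell side were tested on simulated data. Genes named are the adult globins, Alas2, genes on the red-cell side, the 10 non-globin genes with most UMIs, the top gene of each marker list and members of the red-cell lists. In bulk they are the globins, Alas2, Slc4a1, Bpgm and listed genes past the threshold, and the genes of non-overlapping groups, Gpx1, Car2 and Ghrh were named after their values were seen. Alternatives were other globin thresholds, clusterings, folds, minimum UMIs and scalings, thinning each cell to 3000 UMIs, and in bulk no filter, library sizes alone, a replicate block and leaving out each library. Shared 98-base stretches came from the GENCODE transcripts, and promoter stretches from the RefSeq table. Some genes that these rules name are counted but not reported here by name.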

Additional observations from a re-analysis of the deposited data

Results flagged for a closer look

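Of 12 values tested over the 4 mutant bulk libraries, 1 had a library far from the rest, and chance flags about 1 in 20 groups. Bpgm stood at 191 normalized CPM in mutant replicate 1, the library of highest globin share, against 96.2, 79.5 and 84.5 in the other mutant libraries. The controls stood at 87.3, 193 and 310 CPM.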

How the results depend on the processing

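The number of red cells lay between 232 and 241 under 5 alternatives. The number of genes on the red-cell side was 16 at 2 times the highest other cluster, 16 by CPM, 92 per 1000000 non-globin UMIs (14.9% of 616), 16 in the richer and 2 in the poorer cluster of red cells, 5 with a floor of 3 UMIs in every cluster, and 8 to 11 under the other alternatives; those by CPM, by cluster and with that floor, and the limit of 100 UMIs on tissue lists, were chosen after seeing the data. By the median over cells in place of summed UMIs, Hba-a1 held 29.2, Hbb-bs 41.5 and Hbb-bt 7.48% of globin UMIs. In bulk, library sizes alone gave 3 called genes, no filter on low counts 240, DESeq2 297 and leaving out each library 0 to 45 (45 without control replicate 1, 16 without control replicate 3), where the main count was 0. Ppox was called without a filter (log2 fold change -1.58, edgeR adjusted p = 0.0289) and by DESeq2 (-1.61, adjusted p = 0.0236), and Car2 without a filter (-1.48, edgeR adjusted p = 0.0403) and without control replicate 1 (-1.90, edgeR adjusted p = 0.0479). Leaving out a library turned the direction of uncalled log2 fold changes in 8 of 62 cases, for Hbb-bs (-1.24 without mutant replicate 1 to 0.06 and 0.11 without mutant replicates 3 and 4), Alas2 (-1.14 without mutant replicate 1 to 0.25 and 0.27 without mutant replicates 3 and 4 and 0.38 without control replicate 2) and Slc4a1 (2.49 without control replicate 1, -0.32 and -0.49 without control replicates 2 and 3 and -0.80 without mutant replicate 2). The cause was not tested. Same-numbered control and mutant libraries did not deviate together (correlations -0.454, -0.00762 and -0.227). So few libraries cannot show that the numbers carry no pairing. With a replicate block 0 genes were called. Library sizes alone moved the median log2 fold change of all genes from 0.13 to 0.25. Over all the bulk alternatives this median lay between 0.06, without mutant replicate 4, and 0.59, with no filter on low counts. With 1 single-cell library, depth limits only counting error, and variation between animals could not be measured.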
